A study of Rattus norvegicus with 10 samples.

Results

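Calcineurin and the transcription factors it controls were followed in rat pancreatic β-cells after silencing of Scrt1. The 10 genes were chosen by symbol: the catalytic subunits Ppp3ca, Ppp3cb and Ppp3cc, the regulatory subunit Ppp3r1, the calcium-regulated NFAT factors Nfatc1, Nfatc2, Nfatc3 and Nfatc4, and the inhibitors Rcan1 and Rcan2. They are 10 of 23918 genes in the deposited table and hold 18 of its 31715 transcripts. Scrt1 is a zinc-finger transcriptional repressor, and the comparison asks which genes change when it is lowered. The cells came from islets of adult Sprague-Dawley rats with no other genetic change, were sorted by FACS on the natural fluorescence of β-cells, and were grown on plates coated with matrix from a rat bladder cancer cell line. One group (siScrt1, replicates A to E) received a pool of 4 siRNAs against rat Scrt1. The other (siCtrl, replicates 1 to 5) received a negative control siRNA. Both were transfected with Lipofectamine RNAiMAX, and RNA was taken 48 h later. The islet medium that the study describes held 11 mM glucose, with no difference given between the groups. The labels do not say whether the 5 libraries of a group came from separate animals, so that p-values measure the spread between these libraries, which may be technical.

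Calcineurin is a phosphatase that is switched on by calcium and calmodulin. It is built from 1 catalytic and 1 regulatory subunit, and it removes phosphates from NFAT proteins, which then enter the nucleus and bind DNA together with partners such as AP-1. In β-cells, glucose raises cytosolic calcium, and the pathway is known for its part in β-cell growth and in the expression of insulin and other β-cell genes. RCAN proteins bind calcineurin and restrain it.

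Values are given on 3 scales. Scaled counts are the estimated read counts that the authors scaled between libraries, summed over the transcripts of a gene. They serve to compare libraries. TPM is the amount per transcript length relative to the library and serves to compare genes. Recovered reads are the scaled counts divided by what 1 read was worth in that library, and CPM is the same relative to the library total. Depth ran from 11901342 to 17444034 recovered reads, and the group means differed by less than the spread between libraries (p = 0.635 by an exact permutation, two-sided, of 5 against 5). Scrt1 (ENSRNOG00000025594) had 156 to 250 scaled counts in siCtrl, and 83.3, 62.3, 63.1, 30.5 and 22.8 in siScrt1 replicates A to E, a log2 change of -2.06 (SE 0.308, limma adjusted p = 0.00618). The listed β-cell markers summed to 102492 to 165615 CPM in siCtrl and 104535 to 150616 in siScrt1, and Gcg, the glucagon gene of α-cells, stood at 206 to 579 CPM over all libraries. The summed markers of 9 cell types differed between the groups with exact permutation p-values from 0.0714 (acinar, under 1 CPM in every library) to 0.841, not adjusted. As the RNA came from many cells at once, fewer cells of a type and less RNA per cell cannot be told apart.

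Silencing of Scrt1 left most of the 10 genes within the spread of their replicates and changed 3. Ppp3r1, the regulatory subunit through which calcineurin senses calcium, was lowered, and its mean decreased by 24.4%, while Nfatc1 and Nfatc2 were raised 1.70-fold and 2.13-fold in the fit. None of the 3 catalytic subunits and neither RCAN inhibitor passed the test. The test was limma on log2(scaled count + 0.5) with Benjamini-Hochberg adjustment over all 12941 genes tested, and a gene is called at an adjusted p under 0.05. All 10 genes were expressed highly enough to be tested. Over all genes tested, 1.05% were called, of which 0.371% of the tested genes were raised and 0.68% were lowered. The median log2 change was 0.02 over the 10 genes and 0.00 over all genes. The groups did not overlap for the same 3 genes, against 3.51% of all genes. The study had itself named Ppp3r1, Nfatc1 and Nfatc2 from these libraries, so their calls are not independent evidence. For Nfatc1 and Nfatc2 the study also reported qPCR in sorted β-cells after Scrt1 silencing, which was not analysed here.

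**Figure D1:**
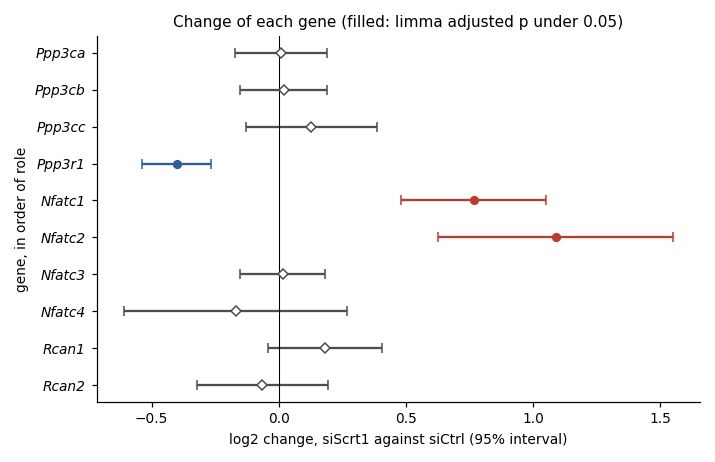
Fitted log2 change of each of the 10 genes, siScrt1 against siCtrl (x axis, n = 5 libraries per group), with its 95% interval from limma. The intervals of Ppp3r1 (-0.54 to -0.27), Nfatc1 (0.48 to 1.05) and Nfatc2 (0.63 to 1.55) lie on one side of 0, and the other 7 include it.

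The levels of the 10 genes spanned a wide range in these cells. On the TPM scale, averaged over the 10 libraries, the order was Ppp3r1 (57.6 ± 7.85), Ppp3cb (43.5 ± 3.67), Rcan2 (40.0 ± 5.68), Nfatc3 (19.4 ± 1.32), Ppp3ca (17.2 ± 1.47), Ppp3cc (7.76 ± 1.06), Rcan1 (7.60 ± 0.899), Nfatc1 (2.45 ± 0.747), Nfatc2 (1.70 ± 0.675) and Nfatc4 (0.384 ± 0.0785) (SD, n = 10). Ppp3cc and Rcan1 could not be put in order, since each was the higher in 5 libraries. Ppp3cb was above Rcan2 in 7 of 10 libraries and their ranges overlapped. The other neighbours kept their order in all 10 libraries, although the ranges of Ppp3r1 and Ppp3cb, of Nfatc3 and Ppp3ca, and of Nfatc1 and Nfatc2 overlapped. Among the NFAT factors Nfatc3 was thus the abundant one, and both factors that rose started from a low level.

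**Figure D2:**
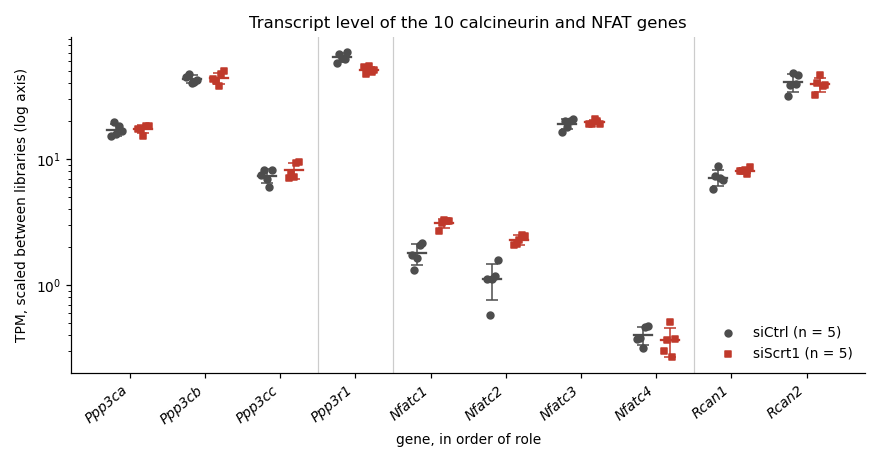
TPM, scaled between libraries, of each gene in each of the 5 siCtrl and 5 siScrt1 libraries (points, log axis), with the mean and SD of each group (bars), ordered by role from catalytic subunits to inhibitors. Nfatc1 and Nfatc2 lie higher and Ppp3r1 lower in every siScrt1 library, and Nfatc4 lies under 1 TPM in all 10.

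The catalytic subunits carry the phosphatase site of calcineurin. Ppp3cb, which encodes the β form, was the main one in β-cells with 63.8% ± 1.47 of the summed TPM of the 3 genes in siCtrl and 63.4% ± 0.570 in siScrt1 (SD, n = 5 per group). Ppp3ca, the α form, made up 25.3% ± 2.01 and 24.9% ± 0.952, and Ppp3cc, the γ form, 10.9% ± 1.05 and 11.7% ± 0.729. The make-up of the catalytic pool thus moved by less than the spread between libraries for Ppp3ca and Ppp3cb.

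None of the catalytic genes was called. Ppp3cb (ENSRNOG00000054782) had 1351 ± 92.6 scaled counts in siCtrl and 1373 ± 143 in siScrt1 (SD, n = 5 per group). Its 95% interval, 0.901 to 1.14-fold, gives the range of changes that these libraries leave possible. For Ppp3ca (ENSRNOG00000009882) the counts were 587 ± 62.6 and 589 ± 43.0, with an interval of 0.887 to 1.14-fold. The groups overlapped for both genes. Ppp3cc (ENSRNOG00000009745) had 184 ± 23.4 and 202 ± 27.2 scaled counts, with a wider interval of 0.914 to 1.31-fold. Limma adjusted p-values of the 3 genes ran from 0.738 to 0.981.

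Ppp3r1 (ENSRNOG00000043210) encodes calcineurin B, the calcium-binding subunit that the catalytic subunits need for activity. Its relative Ppp3r2, known from testis, was listed at 0 in every library, so Ppp3r1 was the regulatory subunit measured here. Ppp3r1 had 2499, 2944, 2779, 2644 and 2962 scaled counts in siCtrl replicates 1 to 5. It had 2167, 1962, 2128, 2044 and 2152 in siScrt1 replicates A to E. Every siScrt1 library lay below every siCtrl library, and the gap between the groups, from 2167 to 2499, was wider than the whole siScrt1 range. The log2 change was -0.40 (SE 0.0626, limma adjusted p = 0.00752), or 0.757-fold with a 95% interval of 0.689 to 0.831. The call held in all 20 alternatives, with limma adjusted p-values up to 0.0491.

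**Figure D3:**
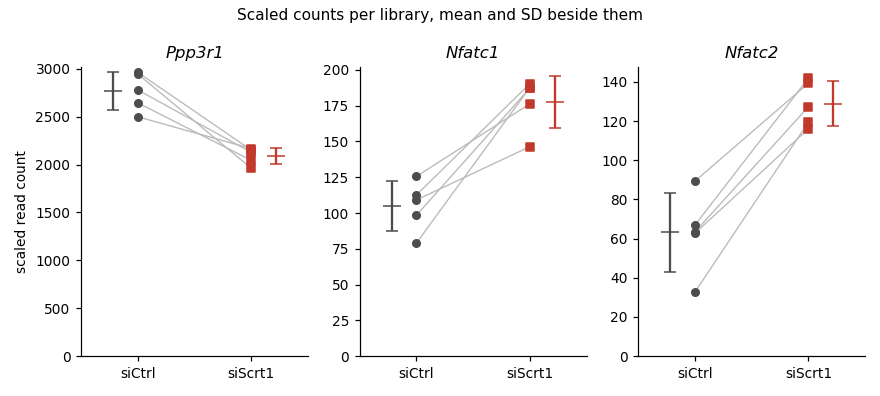
Scaled read counts (y axis, from 0) of Ppp3r1, Nfatc1 and Nfatc2 in each library, with lines joining libraries that carry the same number in the deposited table and, beside the points, the mean and SD of each group (n = 5). All 5 lines fall for Ppp3r1 and all 5 rise for Nfatc1 and Nfatc2.

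The level of Ppp3r1 was also set against that of its catalytic partners, none of which passed the test. The TPM of Ppp3r1 per summed TPM of the 3 catalytic subunits was 0.951 ± 0.0733 in siCtrl and 0.745 ± 0.108 in siScrt1 (SD, n = 5 per group). It was lower in all 5 same-numbered pairs, but the ranges, 0.860 to 1.04 and 0.655 to 0.909, overlapped. No test was run on this ratio.

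The fall of Ppp3r1 was carried by its longer transcript. ENSRNOT00000067846.3, of 3114 bases, had 2367, 2793, 2653, 2486 and 2757 scaled counts in siCtrl replicates 1 to 5, against 1958, 1795, 1855, 1882 and 2020 after silencing (replicates A to E). The shorter ENSRNOT00000031275.6, of 1310 bases, had 154 ± 31.2 and 188 ± 54.4 (SD, n = 5 per group), with groups that overlapped. The longer transcript changed by -0.46 on the log2 scale (SE 0.0609, limma adjusted p = 0.0147), where 0.418% of 17485 transcripts tested were called. For the shorter the log2 change was 0.26 (SE 0.196, limma adjusted p = 0.717). With the replicate number as a block the longer transcript had a limma adjusted p of 0.0545, and without siCtrl replicate 5 or siScrt1 replicate D it had 0.0567 or 0.0503.

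The longer transcript accordingly made up a smaller share of Ppp3r1 in siScrt1. Of the TPM of Ppp3r1 it held 86.6% ± 2.00 under siCtrl and 79.5% ± 4.87 under siScrt1 (SD over 5 libraries), -7.10 percentage points apart (p = 0.0159, exact permutation, two-sided). By reads in place of TPM the shares were 94.4% and 91.0%, a difference of -3.44 points with the same exact p. The groups overlapped at one point, since siScrt1 replicate E, at 85.4%, exceeded siCtrl replicate 5, at 83.7%. Shares were compared in this way for 5 genes with several transcripts, and the p-values are not adjusted. In the other 4 (Ppp3cc, Nfatc1, Nfatc3 and Rcan2) the exact p ran from 0.278 to 0.675. These shares depend on how reads that fit both transcripts were divided, and that uncertainty was not modelled.

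**Figure D4:**
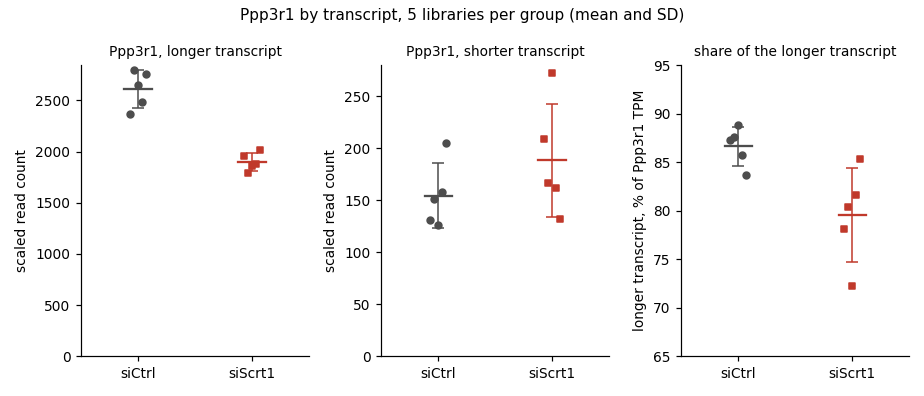
Ppp3r1 by transcript in each library: scaled read counts of the 3114-base and the 1310-base transcript (left and middle, axes from 0) and the percent of Ppp3r1 TPM in the longer one (right), with the mean and SD of each group (n = 5). The longer transcript is lower in every siScrt1 library, whereas the shorter one overlaps between groups.

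The NFAT factors carry the signal of calcineurin to DNA. Nfatc1 and Nfatc2 are best known from T-cells, and Nfatc1 also from bone and heart valves. Nfatc3 and Nfatc4 are found in many tissues. Of these 4 genes, Nfatc1 and Nfatc2 were called, both raised.

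Nfatc2 (ENSRNOG00000012175) is represented by 1 transcript of 3701 bases. Its promoter is shown because it holds letters that the study gives for SCRT1, the protein of the silenced gene. The study's consensus for SCRT1 reads gagCAACAGGTGgtt, and its inner 9 letters CAACAGGTG and the E-box CAGGTG inside them were searched on both strands. The promoter sequences are from RefSeq on GRCr8, from 250 bases before to 50 bases after the start of the gene, on the strand of the gene. They were found for 6 of the 10 genes (Ppp3ca, Ppp3cb, Ppp3r1, Nfatc2, Rcan1 and Rcan2), and not for Ppp3cc, Nfatc1, Nfatc3 and Nfatc4. Capitals mark the searched letters, and the promoter of Ppp3r1, the called gene that was lowered, is given beside that of Nfatc2, at chr3:177732925-177733224 (minus strand) and chr14:95769596-95769895 (plus strand).
Nfatc2 promoter: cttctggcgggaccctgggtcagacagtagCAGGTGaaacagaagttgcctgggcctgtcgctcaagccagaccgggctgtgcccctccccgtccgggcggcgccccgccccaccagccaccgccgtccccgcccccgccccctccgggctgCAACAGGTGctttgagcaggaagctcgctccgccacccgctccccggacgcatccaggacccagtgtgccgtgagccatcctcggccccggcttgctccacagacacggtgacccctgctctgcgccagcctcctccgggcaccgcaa
Ppp3r1 promoter: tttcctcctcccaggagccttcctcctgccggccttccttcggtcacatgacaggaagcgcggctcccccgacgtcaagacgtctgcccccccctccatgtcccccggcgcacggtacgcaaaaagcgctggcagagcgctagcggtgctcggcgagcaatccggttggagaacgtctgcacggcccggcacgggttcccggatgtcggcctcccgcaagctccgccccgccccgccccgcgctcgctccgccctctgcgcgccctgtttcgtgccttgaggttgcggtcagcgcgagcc

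In the promoter of Nfatc2, CAACAGGTG begins 98 bases before the start, and a second CAGGTG outside it begins 220 bases before the start. The 9 letters occur in 68 of 33469 promoters of the table (0.203%) and the 6 letters in 6304 (18.8%), the former always counted among the latter. Neither occurs in the promoter of Ppp3r1. Of the other 4 genes found, Ppp3cb has CAGGTG once, 195 bases before its start, and Ppp3ca, Rcan1 and Rcan2 have neither. A match of letters describes the sequence and does not show binding.

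Nfatc2 had 62.8, 32.9, 63.5, 67.0 and 89.4 scaled counts in siCtrl replicates 1 to 5. Its counts were 116, 119, 127, 142 and 139 after silencing, from replicate A to E. The groups did not overlap, and siCtrl replicate 2 was the lowest library of all. The control libraries held 32 to 84 recovered reads of it, and the silenced ones 92 to 158. The log2 change was 1.09 (SE 0.213, limma adjusted p = 0.0293), or 2.13-fold with a 95% interval of 1.54 to 2.92. Of 20 alternatives 13 kept the call. Its limma adjusted p was 0.0575 without siCtrl replicate 3 and 0.0564 without siCtrl replicate 4. Without siScrt1 replicates B, C, D and E it was 0.0622, 0.0734, 0.0953 and 0.0866. With no filter on low values it was 0.0552, and on log2(TPM + 1) the log2 change was 0.65. Tested among all transcripts, the 1 transcript of Nfatc2 had a limma adjusted p of 0.0831. Of its 14 alternatives 0 came under 0.05 (limma adjusted p from 0.0504 to 0.222).

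Nfatc1 (ENSRNOG00000017146) had 109, 79.1, 98.5, 113 and 126 scaled counts in siCtrl replicates 1 to 5. It had 146, 188, 187, 190 and 176 in siScrt1 replicates A to E. Each siScrt1 library was above each siCtrl library, with replicate A closest to the controls. The log2 change was 0.77 (SE 0.131, limma adjusted p = 0.0134), or 1.70-fold with a 95% interval of 1.40 to 2.07. Without siScrt1 replicate D the limma adjusted p was 0.0530, and in the other 19 alternatives the call held. Of its transcripts, ENSRNOT00000058382.4 (4108 bases) carried most of the counts, 97.2 ± 15.7 in siCtrl and 160 ± 22.8 in siScrt1 (SD, n = 5 per group), without overlap. Its log2 change of 0.72 (SE 0.146) had a limma adjusted p of 0.0757 over all transcripts. Only 1 of 14 alternatives, without siScrt1 replicate A, gave a limma adjusted p under 0.05 (0.0483). With the replicate block it was 0.189, and without siScrt1 replicate D it was highest, at 0.215. The shorter ENSRNOT00000090369.1 (2132 bases) had 0.00 to 17.4 and 7.01 to 25.5 scaled counts, too few for a firm statement (limma adjusted p = 0.584).

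Scrt1 itself varied among the libraries of each group, and the NFAT counts followed no single order beside it. In siScrt1, replicate A, at 83.3 scaled counts of Scrt1, was the highest for Scrt1 and the lowest for Nfatc1 (146) and Nfatc2 (116), and replicates D and E, at 30.5 and 22.8 of Scrt1, had the highest counts of Nfatc2 (142 and 139). In siCtrl the lowest library for Scrt1, replicate 2 at 156, was also the lowest for Nfatc1 (79.1) and Nfatc2 (32.9), and the highest for Scrt1, replicate 4 at 250, was second highest for both (113 and 67.0). Other libraries broke these orders. In siScrt1, replicate E, the lowest for Scrt1, had 176 of Nfatc1, below replicates B, C and D (188, 187 and 190). In siCtrl, replicate 5, second lowest for Scrt1 at 166, had the highest counts of Nfatc1 (126) and Nfatc2 (89.4). With 5 libraries in each group no correlation was computed.

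Lymphocytes use the same NFAT genes, so their markers are given beside the rises. Cd3e, Cd3d, Cd79b and Ms4a1 were listed at 0 in all 10 libraries, Cd3g reached at most 0.20 CPM, and Cd8a at most 0.13 CPM. Cd79a was not analysed here. The 7 markers in the table summed to 1.27 to 3.21 CPM in siCtrl and 1.20 to 2.68 in siScrt1, nearly all from Cd4 (p = 0.548, exact permutation, two-sided). The 8 markers of macrophages and other immune cells summed to 5.34 to 6.94 and 4.72 to 7.40 CPM (p = 0.770, same exact test). The mesenchymal markers, named here after their values were seen, summed to 3.71 to 16.8 and 4.72 to 30.6 CPM (p = 0.548, same exact test). They were highest in siScrt1 replicate D, which also had the highest counts of Nfatc1 and Nfatc2. Whether other cells contributed to the rises was not tested.

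Nfatc3 (ENSRNOG00000054264) had 1490 ± 158 scaled counts in siCtrl and 1501 ± 77.9 in siScrt1 (SD, n = 5 per group), with an interval of 0.901 to 1.14-fold (limma adjusted p = 0.962). Both of its transcripts were expressed, the 5955-base ENSRNOT00000089783.1 with 59.9% ± 4.48 of the TPM in siCtrl and 55.7% ± 7.17 in siScrt1, and the 3672-base ENSRNOT00000087491.1 with the rest. Neither was called. Nfatc4 (ENSRNOG00000020482) was near the lower limit of what could be tested, with 22.5 to 46.9 recovered reads per library. It had 38.0 ± 6.19 and 34.2 ± 8.65 scaled counts, with an interval of 0.656 to 1.21-fold (limma adjusted p = 0.802), and its 3170-base transcript ENSRNOT00000027789.5 was listed at 0 in every library.

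The make-up of the NFAT pool differed between the groups as its scarce members rose and its abundant one stayed within its spread. Nfatc3 made up 85.2% ± 2.65 of the summed NFAT TPM in siCtrl and 77.4% ± 1.18 in siScrt1. Nfatc1 went from 8.0% ± 1.20 to 12.2% ± 0.669, and Nfatc2 from 4.98% ± 1.42 to 9.0% ± 0.679 (SD, n = 5 per group). The ranges of these 3 shares did not overlap between the groups. The summed TPM of the 4 factors was 22.4 ± 2.04 and 25.4 ± 1.16. It was higher in siScrt1 in all 5 same-numbered pairs, and the ranges overlapped. No test was run on these sums and shares.

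The RCAN inhibitors bind calcineurin, and Rcan1 is itself known as a gene that NFAT turns on, which makes its level a usual readout of the pathway. Rcan1 (ENSRNOG00000001979) is represented by 1 transcript of 2156 bases, so different forms of its RNA were not told apart. Its scaled counts were 181, 231, 277, 222 and 216 in siCtrl replicates 1 to 5. It had 251, 252, 257, 239 and 270 in siScrt1 replicates A to E. The siScrt1 libraries lay close together, and siCtrl replicate 3 exceeded all of them. The log2 change was 0.18 (SE 0.104, limma adjusted p = 0.555), with an interval of 0.971 to 1.33-fold. Rcan2 (ENSRNOG00000010350), at a higher TPM than Rcan1 in these cells, had 2053 ± 338 and 1954 ± 252 scaled counts (SD, n = 5 per group), with an interval of 0.801 to 1.14-fold (limma adjusted p = 0.888). The TPM of both inhibitors per summed catalytic TPM was 0.717 ± 0.141 in siCtrl and 0.689 ± 0.130 in siScrt1.

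Genes of the surrounding pathway were grouped into 6 lists by function, with 78 genes tested. Of these, 2 were called, both raised and both in calcium entry and store release. Over all genes tested, 1.05% were called and 0.371% were called raised, and no test was run on the lists. Stim1, the sensor of calcium stores that opens ORAI channels, had 976, 924, 1166, 1011 and 1038 scaled counts in siCtrl and 1184, 1486, 1369, 1429 and 1509 in siScrt1 replicates A to E. Its log2 change was 0.45 (SE 0.0812, limma adjusted p = 0.0199). Itpr2, an IP3 receptor that releases stored calcium, had 589, 570, 581, 599 and 558 in siCtrl and 721, 671, 717, 763 and 718 in siScrt1. Its log2 change was 0.31 (SE 0.0575, limma adjusted p = 0.0228). Neither gene overlapped between the groups. The call of Stim1 was lost without siCtrl replicates 4 or 5 or siScrt1 replicates B, D or E (limma adjusted p from 0.0522 to 0.0750), and that of Itpr2 without siCtrl replicate 5 or siScrt1 replicates A, C, D or E and on either TPM scale (0.0515 to 0.0940).

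**Figure D5:**
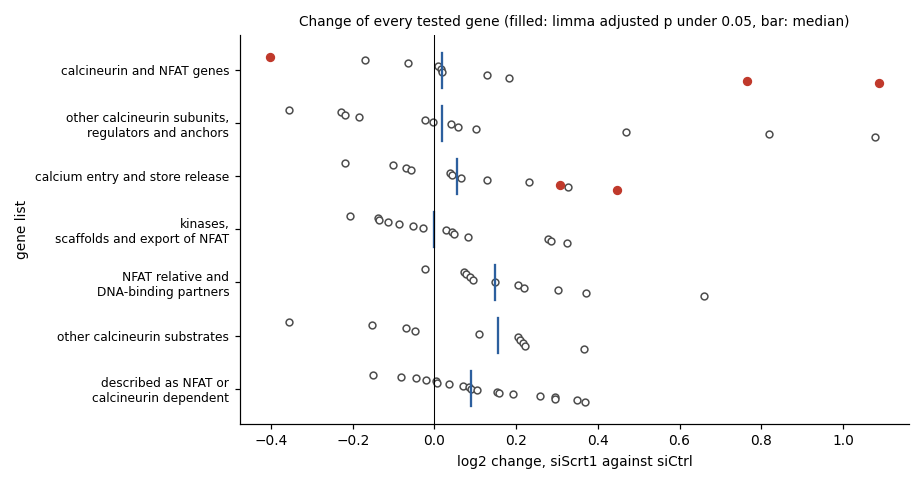
Fitted log2 change (x axis) of every tested gene among the 10 calcineurin and NFAT genes and in the 6 pathway lists, with the median of each list as a bar and called genes filled. Outside the 10 genes the only filled points are Itpr2 at 0.31 and Stim1 at 0.45, and the list medians run from 0.00 to 0.16.

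The other lists held no called gene. Of 12 genes tested for calcium entry and store release, 8 had positive and 4 negative changes (median log2 change 0.05). The most abundant, the calcium pumps Atp2a3 and Atp2a2, changed by -0.22 and -0.10 (limma adjusted p = 0.551 and 0.705). Of the 12 tested genes for other calcineurin subunits, regulators and anchors, 6 were positive and 6 negative (median 0.02). Calmodulin, the calcium sensor that activates calcineurin, is listed here by 2 genes with the symbol Calm2 (ENSRNOG00000004060 and ENSRNOG00000030871), at -0.23 and -0.22 (limma adjusted p = 0.363 and 0.268), and by Calm3, at 0.10 (limma adjusted p = 0.721), which is named here after its value was seen. Reads could be divided between the near-identical copies of Calm2, so each value is uncertain.

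Kinases that rephosphorylate NFAT, with scaffolds and export factors, numbered 14 tested genes, 7 positive and 7 negative (median log2 change 0.00). Csnk1a1 and Gsk3a, the most abundant of these kinases, changed by -0.09 and 0.05 (limma adjusted p = 0.649 and 0.845). Of 11 tested genes for the NFAT relative Nfat5 and DNA-binding partners, 10 were positive and 1 negative (median 0.15). Mef2d and the AP-1 subunit Jund changed by 0.08 and 0.22 (limma adjusted p = 0.835 and 0.577). The 10 other substrates of calcineurin were positive in 6 and negative in 4 cases (median 0.16), with Dnm1l, the mitochondrial fission GTPase, at -0.15 and the CREB coactivator Crtc1 at 0.22 (limma adjusted p = 0.459 and 0.557).

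Genes described as dependent on NFAT or calcineurin, in β-cells or elsewhere, were 19 among those tested. Of these, 15 had positive and 4 negative changes, and none was called (median log2 change 0.09). Over all genes tested 6601 changes were positive and 6340 negative, and no test was run on the signs in any list. The insulin genes Ins1 and Ins2 changed by 0.15 and 0.19 (limma adjusted p = 0.893 and 0.853). At an unadjusted p under 0.05 there were 4 of these 19 genes, 14 of all 78 pathway genes, and 1435 of the 12941 genes tested. In the fit with the replicate block, 2.0% of all genes were called, and the pathway genes called were again Stim1 and Itpr2.

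The genes whose scaled counts most resembled those of the called members over the 10 libraries were found by Pearson correlation on the log2 scale. For Ppp3r1 they were Pank3 (r = 0.987), Cisd2 (0.986) and Vhl (0.985), all lower in siScrt1. For Nfatc1 they were Ypel3 (0.976), Sec24d (0.974) and Ankrd52 (0.973). For Nfatc2 they were Ypel3 (0.980), Kank2 (0.965) and Nfatc1 itself (0.963). The points share the group difference and the library. After subtraction of each group's mean the correlations of these same genes were 0.864 to 0.931, over the same 10 libraries. The genes had been picked for the highest correlation among all genes tested. High values after subtraction follow in part from that choice and are not evidence of a link.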

How the data were processed

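The authors sequenced single-end reads of 151 bases, quantified them on the rat Rnor6 transcriptome with kallisto and scaled them with sleuth (versions not given in the sources used here). The deposited table gives estimated counts and TPM per transcript. Both are signals that the authors scaled between libraries, so that the deposited TPM summed to 821278 to 1153952 per library. A further 9363 rows without values were left out. Division by the step of each library (0.842 to 1.26 scaled counts for 1 read) gave recovered reads, of which 50.3% of transcript values and 76.2% of gene values above 0 were whole within 0.01. Since the values were scaled and not nearly all whole, the planned limma fit for scaled values was used and no count model. Limma-voom on recovered reads, as an alternative, called 138 genes.

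Scaled counts summed per gene were tested as log2(value + 0.5) by limma 3.58.1 under R 4.3.3, with an intensity trend and no term but the group. Such changes understate those of genes with few reads. Genes needed 15 reads in all and, in 5 or more libraries, the CPM that 10 reads have at median depth. Transcripts needed 5 reads in 47% of libraries. Single values were compared by exact permutation, with a smallest p of 0.00794. The fits were tested on simulated data. Depth was 11901342 to 17444034 recovered reads per library.

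The table numbers the libraries 1 to 5 in each group. After subtraction of group means same-numbered libraries correlated at 0.351, 0.131, 0.231, 0.198 and 0.234. Differently numbered libraries correlated at up to 0.167, and siScrt1 replicate B, number 2, correlated best with siCtrl replicate 3. The main fit did not use the numbers. They were taken to pair libraries in the replicate block and the same-numbered pairs, although the labels do not say what they stand for. With the block, limma adjusted p-values were 0.00949 for Ppp3r1, 0.0153 for Nfatc1 and 0.00856 for Nfatc2. Alternatives were other scalings, units, pseudocounts and filters, the replicate block, and each library left out. The members, the lists and the rule for named genes (members, Scrt1, called pathway genes, the 2 most abundant of each list, and the 3 genes most like each of Ppp3r1, Nfatc1 and Nfatc2) were chosen with earlier results of these data known. The transcript shares were added after seeing the data.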

Additional observations from a re-analysis of the deposited data

How the results depend on the processing

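No change of a member gene or transcript that was called turned its direction in any alternative. With all libraries kept, 10 alternatives called 2 or 3 of the 10 calcineurin and NFAT genes, and leaving out 1 library at a time gave 1 to 3, with Ppp3r1 alone called without siScrt1 replicate D. The 2 pathway genes became 1 on log2(TPM + 1) and 1 on log2(TPM + 0.1), and 0 to 2 with 1 library left out. The 136 genes called in all became 62 to 133 with 1 library left out. With the replicate block they became 259 (105 raised and 154 lowered, 132 of them shared), and the 1 called member transcript became 0. With 1 library left out, 0 to 2 member transcripts were called. The block changed no other call reported here. The cause of these moves was not tested. Of 199 values for single member genes in the alternatives, 191 kept their side of the threshold and 8 lost the call, all of Nfatc1 or Nfatc2. Most of the 199 are of genes not called in the main fit, far from the threshold. Of 20 alternatives each, the call held in 20 for Ppp3r1, 19 for Nfatc1 and 13 for Nfatc2. Nfatc4, at 22.5 to 46.9 reads, was not tested with the filter of 50 reads. Its interval in the main fit, 0.656 to 1.21-fold, gives the range of changes that these libraries leave possible. Intervals rest on 5 libraries per group.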

Other observations

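Some pathway genes stood apart between the groups without being called. In 5 of the 78 pathway genes tested the groups did not overlap, against 3.51% of all genes. Besides Stim1 and Itpr2 these were Crtc3, a CREB coactivator that calcineurin dephosphorylates, Ccnd2, the cyclin D2 that drives entry into the cell cycle, and Hnf4a, a β-cell transcription factor. All 3 were higher in siScrt1, with log2 changes of 0.37, 0.26 and 0.29 (SE 0.0962, 0.0679 and 0.0809), and limma adjusted p-values of 0.115, 0.115 and 0.134. They were chosen after their values were seen.

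The 9 letters found in the Nfatc2 promoter occur in the promoters of 17 tested genes with a single entry in the promoter table. Of these 17 genes, 4 were called raised (Fyco1, Gyg1, Nfatc2 and Parp16) and 0 lowered, with a median log2 change of 0.20. Of 1586 tested genes with the 6 letters CAGGTG, 17 were called raised and 12 lowered, with a median of 0.00. Over the 8754 tested genes with a promoter in the table, 39 were called raised and 60 lowered, with a median of 0.00. This group of genes was formed after the Nfatc2 promoter had been read, and no test was run on it.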
